A study of Homo sapiens with 6 samples.

Results

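The genes described here are MYC with 3 of its network partners and the proteins that transcribe ribosomal DNA and assemble ribosomes, 42 genes in all, chosen by gene symbol. All 42 were found among the 58656 gene rows of the table, and all 42 were among the 16481 genes with enough reads to be tested. They were measured by RNA sequencing of poly(A) RNA in MDA-MB-231, a human triple-negative breast cancer cell line grown in DMEM with serum. One group of 3 libraries was given mitocurcumin, a derivative of curcumin targeted to mitochondria, at 5 µM for 9 hours, and the control group of 3 libraries was given the DMSO vehicle for 9 hours. The single comparison asks which RNAs differ between cells given the compound and cells given its vehicle. The libraries are called biological replicates, with nothing said of separate cultures, and the p-values therefore reflect only how far these samples vary, which may be technical.

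MYC is a transcription factor that binds DNA as a pair with MAX, often at the sequence CACGTG, the E-box, and MXD1 and MXI1 pair with MAX in its place and act as repressors at the same sites. Genes of ribosome production are among the best known MYC-activated genes. In the nucleolus, RNA polymerase I copies the ribosomal DNA with the help of UBTF and RRN3, small nucleolar ribonucleoproteins (snoRNPs) guide the modification of the transcript, and assembly factors cut and fold it into the small and the large ribosomal subunit.

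Total estimated counts were 23146822 to 29104681 per mitocurcumin library and 23498132 to 25914240 per control library. The first principal component held 51.6% of the variance and separated the groups, and the second held 16.2% and set control 1 apart, at 31.3 against -17.2 and -17.1 for the other controls. The share of counts in ribosomal RNA rows was 0.292% to 1.34% in mitocurcumin libraries and 0.542% to 1.51% in control libraries. The 5 markers chosen as high in this line (VIM, CD44, AXL, MSN and CAV1) summed to 7033 to 7270.4 CPM (counts scaled to a common library total) in mitocurcumin libraries and 6964 to 7024 CPM in control libraries. The 5 chosen as low (ESR1, PGR, CDH1, EPCAM and ERBB2) summed to 54.1 to 57.9 CPM with mitocurcumin and 62.7 to 71.2 CPM in controls. Of these, ESR1 and PGR were at most 0.348 CPM and CDH1 at most 3.15 CPM, EPCAM had 18.8 to 20.8 CPM with mitocurcumin and 21.0 to 24.3 CPM in controls, and ERBB2 had 30.3 to 35.5 CPM with mitocurcumin and 37.2 to 48.6 CPM in controls. ERBB2 fell by 0.35 ± 0.10 on the log2 scale (edgeR adjusted p = 0.015). The 10 markers of other cell types summed to 99.6 to 123 CPM with mitocurcumin and 135 to 147 CPM in controls. Most of that was CD68, which fell by 0.29 ± 0.07 (edgeR adjusted p = 0.00544), and PECAM1 fell by 1.01 ± 0.14 (edgeR adjusted p = 2.8e-05), to 6.06 to 6.78 CPM with mitocurcumin, against 11.5, 12.3 and 15 CPM in controls. COL1A1 and PDGFRB did not pass and were at most 10.1 and 6.48 CPM, PTPRC was at most 1.44 CPM and CD3E, VWF, KRT14, KRT5 and ALB were at most 0.256 CPM. The part of these markers in the results was not tested. In bulk RNA, fewer cells of a type and less RNA per cell cannot be told apart.

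The 4 genes of the MYC network rose together, while the genes of ribosome production moved in both directions and by small amounts. Of the 42 genes, 8 (19.0%) rose and 14 (33.3%) fell at an adjusted p under 0.05 in edgeR's quasi-likelihood test, and 20 did not pass. Of all 16481 genes tested, 14.7% rose, 17.8% fell and 32.5% were called in either direction. The groups did not overlap for 23 of the 42 genes, 9 higher and 14 lower with mitocurcumin (54.8%), against 44.9% of all genes tested, 21.2% higher and 23.7% lower. The median log2 fold change of the 42 genes was 0.00, with a range of -0.60 to 1.10, and that of all tested genes was -0.01. Only 4 of the 42 (MYC, MXD1, MXI1 and RRS1) differed by more than 1.5-fold, and 18 of the 22 called genes differed by less.

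**Figure D1:**
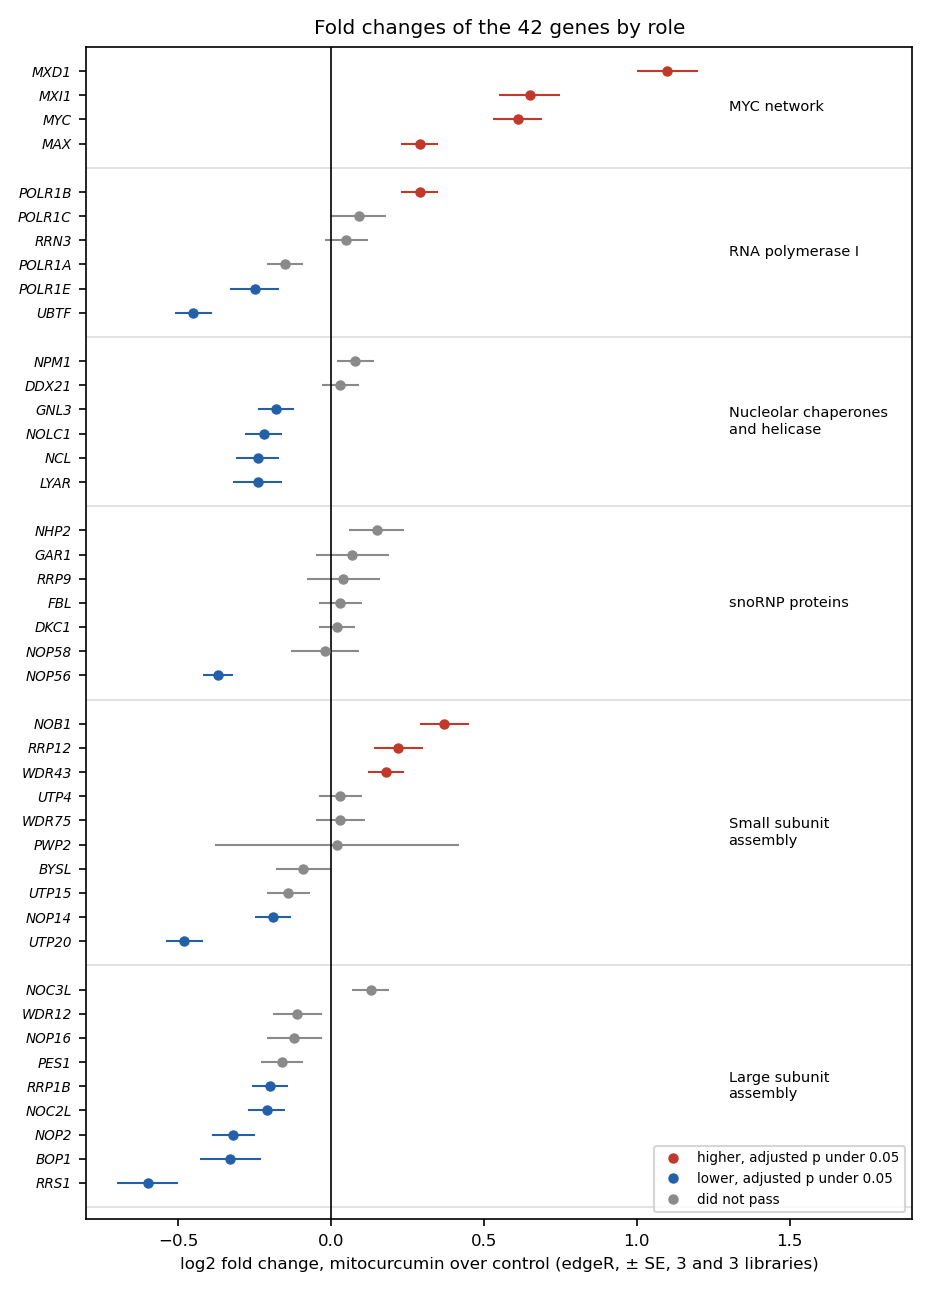
Log2 fold change, mitocurcumin over control, of each of the 42 genes with its SE from edgeR (3 mitocurcumin and 3 control libraries), grouped by role; red points passed as higher, blue as lower and grey did not pass at an adjusted p under 0.05. The MYC network lies to the right of 0, between 0.29 and 1.10, and the large subunit group, apart from NOC3L, to the left.

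Without the MYC network the balance was downward: 4 of the remaining 38 genes rose (10.5%), 14 fell (36.8%) and the median was -0.10. The share that fell lay above the 17.8% of all genes, and no test of that difference was made. The count of lower genes depended on the libraries, being 8 without control 2, 9 without control 3, 7 without mitocurcumin 1 and 6 without mitocurcumin 2. Leaving out control 1, the library that stood apart, gave 15 lower and 7 higher. In the control group, 20 of the 42 genes had their lowest value in control 1 and 14 their highest.

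MYC itself (Entrez 4609, chromosome 8, 127735434 to 127742951, plus strand, GRCh38) had 182, 159 and 155 CPM in the mitocurcumin libraries, against 121, 104 and 100.4 CPM in the control libraries. Each mitocurcumin library lay above each control library. MYC rose with a log2 fold change of 0.61 ± 0.08 (SE; edgeR adjusted p = 1.3e-05).

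MAX, the obligate partner of MYC and of the MXD proteins (chromosome 14, 65006101 to 65102695, minus strand), had 91.1, 87.1 and 94.5 CPM with mitocurcumin, against 75.6, 72.4 and 74.6 CPM in controls. The groups did not overlap, and MAX rose by 0.29 ± 0.06 on the log2 scale (edgeR adjusted p = 0.00115). The MAX row overlaps FNTB and the readthrough gene CHURC1-FNTB on the other strand, and the CHURC1-FNTB row fell (log2 fold change -0.58, edgeR adjusted p = 0.0056). Whether the counting used strand is not given in the sources used here, so reads of MAX and of these rows may not be fully separated.

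MXD1, which pairs with MAX and represses (chromosome 2, 69915109 to 69942945, plus strand), changed most of the 42 genes. It had 53.4, 45.2 and 58.8 CPM with mitocurcumin, against 24.6, 23.4 and 25.5 CPM in controls. The lowest mitocurcumin library was well above the highest control library, and the log2 fold change was 1.10 ± 0.10 (edgeR adjusted p = 2.1e-07). The MXD1 row overlaps ASPRV1 on the other strand over 10229 bases. ASPRV1 had a mean of 3.83 CPM and did not pass (log2 fold change 0.69, edgeR adjusted p = 0.181).

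MXI1, the second MAX-binding repressor (chromosome 10, 110207605 to 110287365, plus strand), had 55.3, 48.8 and 50.5 CPM with mitocurcumin, against 27.4, 36.4 and 34.3 CPM in controls. The groups again did not overlap, although control 1 lay apart below the other controls. MXI1 rose with a log2 fold change of 0.65 ± 0.10 (edgeR adjusted p = 7.3e-05).

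Summed, the 4 network genes reached 360.1 ± 21.0 CPM with mitocurcumin and 239.9 ± 7.35 CPM in controls (SD, n = 3 each). Within a library, the log2 ratio of MXD1 to MYC was -1.77, -1.81 and -1.40 with mitocurcumin, against -2.29, -2.16 and -1.98 in controls. The ratio was higher by 0.48 with mitocurcumin and the groups did not overlap, with an exact two-sided permutation p of 0.1, the smallest that 3 against 3 libraries can give. The log2 ratio of MXI1 to MYC was -1.72, -1.70 and -1.62 with mitocurcumin, against -2.14, -1.52 and -1.55 in controls. The groups overlapped through control 1, and the difference was 0.06 (exact permutation p = 1). Without control 1, an alternative added after seeing the data, it was -0.14. The log2 ratio of MAX to MYC averaged -0.86 with mitocurcumin and -0.54 in controls, a difference of -0.32 with an exact permutation p of 0.1. These 3 ratios were the only ones computed, and a Benjamini-Hochberg adjustment over them could not bring a p below 0.1.

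**Figure D2:**
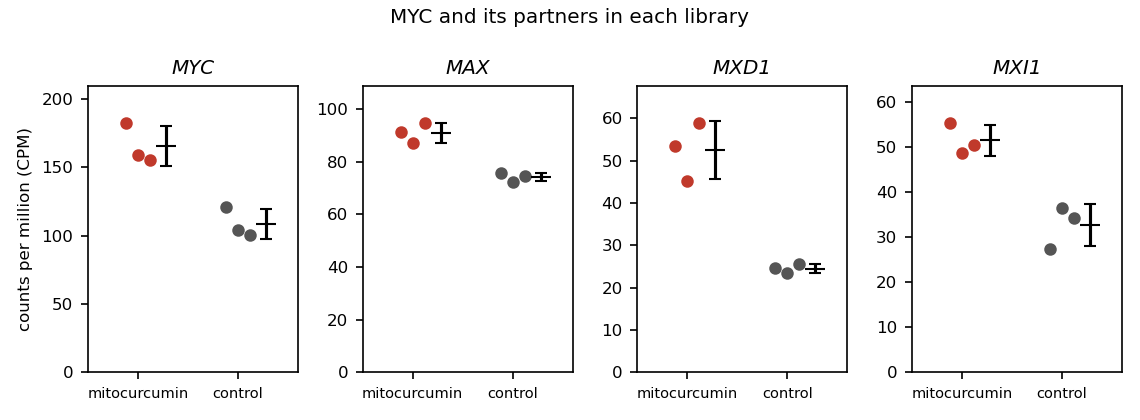
CPM of MYC, MAX, MXD1 and MXI1 in each library (points; mitocurcumin red, control grey), with the group mean and SD beside them and axes starting at 0. In each of the 4 panels the 3 mitocurcumin libraries lie above the 3 control libraries, MXD1 with 45.2 to 58.8 CPM against 23.4 to 25.5 CPM.

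Per kilobase of exon, MYC had 55.1 CPM per kb with mitocurcumin and 36.2 CPM per kb in controls. MAX followed with 22.2 CPM per kb with mitocurcumin and 18.1 CPM per kb in controls, MXI1 with 12.7 CPM per kb with mitocurcumin and 8.07 CPM per kb in controls, and MXD1 with 9.34 CPM per kb with mitocurcumin and 4.36 CPM per kb in controls. The mean level of both repressors was below that of MYC and MAX in both groups. The most abundant of the 42 genes on this scale was NPM1, with 688 CPM per kb with mitocurcumin and 651 CPM per kb in controls.

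Other genes of the MYC network were mixed. Of 10 further MYC family and partner genes, 8 were tested, and MNT, another MAX-binding repressor, was the 1 that rose (log2 fold change 0.70 ± 0.12, edgeR adjusted p = 3.7e-04). MLX and MLXIP, which form a related pair of factors, fell by 0.29 and 0.28 on the log2 scale, and ZBTB17, a MYC-binding factor also called MIZ1, fell by 0.37. MXD3 (0.09), MXD4 (-0.19), MGA (-0.05) and MLXIPL (0.58 ± 0.46, at about 1 CPM) did not pass, and MYCN and MYCL had too few reads to be tested. PVT1, the long RNA gene beside MYC, rose by 0.48 ± 0.16 (edgeR adjusted p = 0.0289).

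Genes for the turnover of MYC protein also moved both ways, with 5 of 14 higher and 3 lower. FBXO32 and PIM1, an F-box protein and a kinase that acts on MYC, rose by 0.87 ± 0.06 and 0.66 ± 0.09 on the log2 scale. SKP2, an F-box protein of the ubiquitin machinery, fell by 0.97 ± 0.08 and the kinase gene AURKA fell by 0.72 ± 0.05. MYC protein was not measured.

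Textbook MYC-activated genes outside the ribosome did not follow 1 direction. Of 30 tested MYC-activated genes, 5 rose and 10 fell, with a median log2 fold change of -0.09. These are 16.7% and 33.3%, against 14.7% and 17.8% of all genes tested. CCND2, a cyclin, and SHMT2, a mitochondrial serine enzyme, rose by 1.33 ± 0.09 and 1.25 ± 0.07. CDC25A, a cell-cycle phosphatase, fell by 0.82 ± 0.08 and PPRC1, a coactivator of respiration genes, fell by 0.56 ± 0.09. Of 9 tested MYC-repressed genes, 5 rose (55.6%, against 14.7% of all genes tested) and 0 fell, with a median of 0.34. The 5 that rose were GADD45A (1.37 ± 0.09), HBP1 (1.12 ± 0.07), GADD45B (0.94 ± 0.10), CDKN1A (0.34 ± 0.09) and TXNIP (0.18 ± 0.05), genes of growth arrest and stress.

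In the RNA polymerase I group, 1 of 6 genes rose (16.7%), 2 fell (33.3%) and the median was -0.05. The shares of all genes tested were 14.7% higher and 17.8% lower. UBTF, the factor that coats active ribosomal DNA (chromosome 17, 44205040 to 44221304, minus strand), had 94.6, 89.3 and 95.2 CPM with mitocurcumin, against 122, 123 and 137 CPM in controls. Each mitocurcumin library lay below each control. UBTF fell by 0.45 ± 0.06 on the log2 scale (edgeR adjusted p = 2.3e-05).

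POLR1B, the second largest subunit of the polymerase (chromosome 2, 112542036 to 112579818, plus strand), moved the other way. It had 80.5, 85.1 and 82.8 CPM with mitocurcumin, against 66.9, 67.1 and 69.4 CPM in controls. Replicates lay close together in both groups, and the log2 fold change was 0.29 ± 0.06 (edgeR adjusted p = 0.00129). The gene of the largest subunit, POLR1A, did not pass, at -0.15 ± 0.06 (edgeR adjusted p = 0.0659), but passed without control 2 (adjusted p = 0.0357).

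POLR1E, the subunit also called PAF53 (chromosome 9, 37485948 to 37503697, plus strand), had 40.3, 42.8 and 44.1 CPM with mitocurcumin, against 48.6, 55.9 and 46.4 CPM in controls. The groups did not overlap but came within a few CPM of each other. The log2 fold change was -0.25 ± 0.08 (edgeR adjusted p = 0.0296), and the call was lost without control 2, with any mitocurcumin library left out and under upper-quartile scaling (adjusted p up to 0.203). POLR1C, a subunit shared with RNA polymerase III, and RRN3, the initiation factor also called TIF-IA, did not pass (0.09 ± 0.09 and 0.05 ± 0.07). The POLR1C row runs over chromosome 6, 43517089 to 44461400, and spans other genes on its strand, HSP90AB1 among them. RRN3 has pseudogene copies, of which RRN3P3 held 640 counts, so reads of RRN3 may be split. The RRN3 row also overlaps PDXDC1 on the other strand over 34314 bases. PDXDC1 had a mean of 90.1 CPM and fell (log2 fold change -0.19, edgeR adjusted p = 0.0188), and reads of the 2 rows may not be fully separated.

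Of 19 other RNA polymerase I genes, 3 rose and 5 fell, with a median log2 fold change of 0.03. SIRT7, a deacetylase associated with the polymerase, rose by 0.73 ± 0.12, and TAF1A and TAF1D, subunits of the selectivity factor SL1, rose by 0.33 ± 0.11 and 0.31 ± 0.06. MYBBP1A, a nucleolar MYB-binding protein, fell by 0.46 ± 0.07 and TCOF1, the UBTF partner treacle, fell by 0.33 ± 0.06. POLR1G, POLR1F and POLR2K, subunits of the polymerase, fell by 0.32, 0.28 and 0.23.

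Among the nucleolar chaperones and the helicase, 4 of 6 genes fell, each by less than 0.25 on the log2 scale, and the median was -0.20. That is 66.7% of the group, against 17.8% of all genes tested, and none of the 4 calls held in every alternative. NCL, nucleolin, which binds new ribosomal RNA (chromosome 2, 231453531 to 231464484, minus strand), had 1034, 1007 and 1116 CPM with mitocurcumin, against 1086, 1295 and 1357 CPM in controls. The groups overlapped, since control 1 lay below mitocurcumin 3. NCL fell by 0.24 ± 0.07 (edgeR adjusted p = 0.017), and the call was lost without control 2, control 3, mitocurcumin 1 or mitocurcumin 2 (adjusted p up to 0.128).

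NOLC1, the snoRNP chaperone Nopp140 (chromosome 10, 102152389 to 102163870, plus strand), had 269, 267 and 276 CPM with mitocurcumin, against 293, 334 and 318 CPM in controls. No mitocurcumin library reached the lowest control, and NOLC1 fell by 0.22 ± 0.06 (edgeR adjusted p = 0.00691), a call lost without control 2 or mitocurcumin 2 (adjusted p up to 0.0776).

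GNL3, nucleostemin, a nucleolar GTPase (chromosome 3, 52685920 to 52694497, plus strand), had 183, 181 and 191 CPM with mitocurcumin, against 194, 214 and 222 CPM in controls. The highest mitocurcumin library and the lowest control lay next to each other. GNL3 fell by 0.18 ± 0.06 (edgeR adjusted p = 0.0245), a call lost without control 2, control 3, mitocurcumin 1 or mitocurcumin 2, under upper-quartile scaling and under a stricter filter (adjusted p up to 0.153).

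LYAR, a nucleolar zinc finger protein (chromosome 4, 4267701 to 4290154, minus strand), had 69.5, 70.2 and 76.6 CPM with mitocurcumin, against 72.2, 94.3 and 89.2 CPM in controls. The groups overlapped through control 1. LYAR fell by 0.24 ± 0.08 (edgeR adjusted p = 0.04) and passed in only 8 of 17 alternatives. In edgeR the call was lost without control 2, control 3, mitocurcumin 1 or mitocurcumin 2, under upper-quartile scaling, under a stricter filter and at the stricter threshold of 0.01. It was also lost in both limma tests of all 6 libraries (adjusted p up to 0.217 over these alternatives).

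NPM1, nucleophosmin, and DDX21, an RNA helicase, did not pass, at 0.08 ± 0.06 and 0.03 ± 0.06. NPM1 had 1701, 1822 and 1854 CPM with mitocurcumin, against 1537, 1769 and 1786 CPM in controls, with overlapping groups. The 50 rows of NPM1 pseudogenes held 0 counts.

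**Figure D3:**
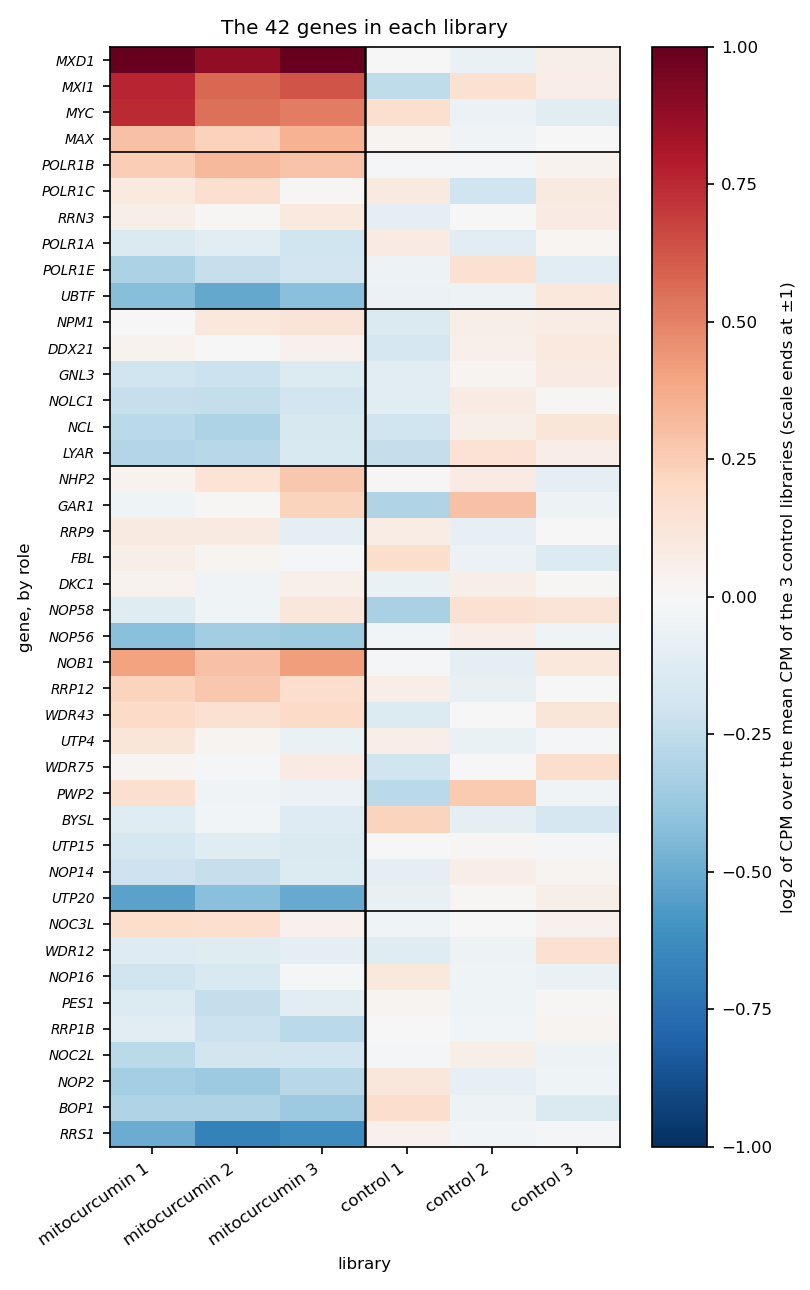
Log2 of CPM over the mean CPM of the 3 control libraries for each of the 42 genes (rows, by role) in each library (columns, mitocurcumin left of control), with the colour scale ending at ±1. The MYC network is red in the 3 mitocurcumin libraries and UBTF, NOP56, UTP20 and RRS1 are blue. Control 1 lies below the other controls in MXI1 and NOP58.

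The snoRNP proteins had the smallest share of called genes among the 6 role groups. Of 7 genes, 1 fell, 6 did not pass and the median was 0.03. That is 14.3% called, against 32.5% of all genes tested, and no test of that difference was made. NOP56, a core protein of the box C/D particles that guide methylation of ribosomal RNA (chromosome 20, 2652632 to 2658393, plus strand), had 168, 177 and 176 CPM with mitocurcumin, against 221, 236 and 218 CPM in controls. The groups were well apart, and NOP56 fell by 0.37 ± 0.05 (edgeR adjusted p = 4.6e-05).

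The other box C/D proteins, the methyltransferase FBL (0.03 ± 0.07), NOP58 (-0.02 ± 0.11) and the U3 particle protein RRP9 (0.04 ± 0.12), did not pass. Nor did the box H/ACA proteins, the pseudouridine synthase DKC1 (0.02 ± 0.06), GAR1 (0.07 ± 0.12) and NHP2 (0.15 ± 0.09). NOP58, which pairs with NOP56 in the particle, had 90.8, 96.0 and 107 CPM with mitocurcumin, against 79.0, 109.9 and 108 CPM in controls. Its lowest library was control 1, and without that library NOP58 passed at -0.15 (edgeR adjusted p = 0.0456). Of 12 other snoRNP genes, ZNHIT3 rose by 0.22 ± 0.08 and RPAP3 fell by 0.32 ± 0.08, both factors for assembling the particles.

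Within the spans of 6 of the 42 genes lie annotated snoRNA rows on the same strand. The 6 genes are DKC1, GNL3, NCL, NOP56, NOP58 and WDR43. Of these hosts 1 rose and 3 fell (66.7% called), against 32.5% called of all genes tested. Of 293 other protein-coding hosts of snoRNAs, 69 rose and 71 fell (47.8% called).

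In the small subunit group, 3 of 10 genes rose, 2 fell and the median was 0.02. Of all genes tested, 14.7% rose and 17.8% fell, and no test of the difference was made. The calls of RRP12, WDR43 and NOP14 did not hold in every alternative. UTP20, a large scaffold protein of the early small subunit particle (chromosome 12, 101280105 to 101386618, plus strand), had 107, 116 and 109 CPM with mitocurcumin, against 147, 156 and 161 CPM in controls. The groups were well apart. UTP20 fell by 0.48 ± 0.06 (edgeR adjusted p = 7.1e-06), the lowest adjusted p among the genes that fell.

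NOB1, the nuclease that makes the last cut of small subunit RNA (chromosome 16, 69741871 to 69754926, minus strand), had 43.9, 40.7 and 44.5 CPM with mitocurcumin, against 32.8, 31.3 and 35.8 CPM in controls. Each mitocurcumin library lay above each control, and NOB1 rose by 0.37 ± 0.08 (edgeR adjusted p = 0.00218).

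RRP12, which takes part in the export and maturation of subunits (chromosome 10, 97356357 to 97401370, minus strand), had 41.8, 43.0 and 40.4 CPM with mitocurcumin, against 37.4, 33.9 and 35.9 CPM in controls. The lowest mitocurcumin library lay above the highest control. RRP12 rose by 0.22 ± 0.08 (edgeR adjusted p = 0.0366), a call lost when any library but control 1 was left out (adjusted p up to 0.127).

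NOP14, an early small subunit factor (chromosome 4, 2937936 to 2963406, minus strand), had 129, 127 and 136 CPM with mitocurcumin, against 139.9, 156 and 152 CPM in controls. The groups came close without overlapping. NOP14 fell by 0.19 ± 0.06 (edgeR adjusted p = 0.0168), a call lost without control 2, control 3, mitocurcumin 1 or mitocurcumin 2 (adjusted p up to 0.114). Its row overlaps NOP14-AS1 on the other strand over 13143 bases, and the antisense row rose (log2 fold change 0.63, edgeR adjusted p = 5.7e-04).

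WDR43, a subunit of the UTP-A complex that joins the nascent transcript first, rose by 0.18 ± 0.06 (edgeR adjusted p = 0.0405), a call lost when any library but control 3 was left out and in limma on the deposited values (adjusted p up to 0.127). Other proteins of that complex, UTP4 (0.03), UTP15 (-0.14) and WDR75 (0.03), did not pass. UTP15 had 50.4 to 52.4 CPM with mitocurcumin and 56.2 to 57.3 CPM in controls, without overlap (edgeR adjusted p = 0.107). BYSL, a late small subunit factor, was at -0.09 and did not pass.

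PWP2, of the UTP-B complex, was the least abundant of the 42 genes at 0.589 to 0.687 CPM with mitocurcumin and 0.508 to 0.735 CPM in controls, and its log2 fold change was 0.02 ± 0.40. A second row, LOC102724159, described as a homolog of PWP2, lies on the same chromosome 21 at 5130871 to 5154658. It held 96.5% of the counts of both rows, and at 14.7, 15.3 and 15.5 CPM with mitocurcumin, against 21.7, 19.8 and 16.4 CPM in controls, it was lower by 0.35 ± 0.11 on the log2 scale (edgeR adjusted p = 0.0272). The spans of 23783 bases for PWP2 and 23788 for the copy are nearly equal, so the value of PWP2 is uncertain.

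The large subunit group leaned down: 5 of 9 genes fell (55.6%), 8 of 9 fold changes were below 0 and the median was -0.20. Of all 16481 genes tested, 17.8% fell and 8349 had a fold change below 0. The 54 other large subunit genes did not lean this way, with 9 higher, 8 lower and a median of -0.03. The 9 genes summed to 489, 480.1 and 481 CPM with mitocurcumin, against 549, 534 and 545 CPM in controls. RRS1, which helps to place the 5S particle in the large subunit (chromosome 8, 66429014 to 66430733, plus strand), had 16.7, 14.8 and 15.3 CPM with mitocurcumin, against 24.3, 23.2 and 23.3 CPM in controls. The groups were well apart, and the fall of 0.60 ± 0.10 was the deepest of the 42 genes (edgeR adjusted p = 1.7e-04).

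BOP1, of the complex it forms with PES1 and WDR12 (chromosome 8, 144262045 to 144291438, minus strand), had 26.4, 26.4 and 25.3 CPM with mitocurcumin, against 36.9, 31.4 and 29.5 CPM in controls. The groups did not overlap, and control 1 was the highest library. BOP1 fell by 0.33 ± 0.10 (edgeR adjusted p = 0.0149), a call lost when any mitocurcumin library was left out (adjusted p up to 0.0686). Its partners did not pass, PES1 at -0.16 ± 0.07 with groups that did not overlap (edgeR adjusted p = 0.0725) and WDR12 at -0.11 ± 0.08.

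NOP2, a methyltransferase of large subunit RNA (chromosome 12, 6556871 to 6568291, minus strand), had 51.1, 50.3 and 53.2 CPM with mitocurcumin, against 69.7, 61.1 and 62.8 CPM in controls. All 3 mitocurcumin libraries lay below the controls, and NOP2 fell by 0.32 ± 0.07 (edgeR adjusted p = 0.00198).

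NOC2L, which escorts the large subunit precursor with NOC3L (chromosome 1, 944203 to 959256, minus strand), had 66.1, 70.0 and 69.7 CPM with mitocurcumin, against 78.9, 82.8 and 77.0 CPM in controls. The groups did not overlap, and NOC2L fell by 0.21 ± 0.06 (edgeR adjusted p = 0.0131), a call lost without control 2 or mitocurcumin 1 (adjusted p up to 0.0931). RRP1B fell by 0.20 ± 0.06 (edgeR adjusted p = 0.0179), a call lost without control 3, mitocurcumin 2 or mitocurcumin 3 (adjusted p up to 0.108). NOP16 (-0.12) and NOC3L (0.13) did not pass.

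The E-box CACGTG, which reads the same on both strands, was searched in promoter windows of 250 bases before to 50 bases after each start site, taken from RefSeq on GRCh38.p14. Of the 42 genes, 34 had a window, and 15 of the 34 (44.1%) held the motif, against 12.2% of the 11349 tested protein-coding genes with a window. Counted by window, 33.3% of the 45 windows of these genes held it, against 9.0% of the 16560 windows of tested protein-coding genes. Of all 35116 windows, untested genes included, 7.26% held it. By role, the motif stood in 3 of 5 chaperone and helicase genes, 3 of 6 snoRNP genes, 6 of 9 small subunit genes and 3 of 6 large subunit genes. It stood in 0 of 3 MYC network genes and 0 of 5 RNA polymerase I genes. Stretches of 30 bases around it are shown for 5 genes that fell (UTP20, NOP2, LYAR, NOP14 and GNL3), 1 that rose (WDR43) and 2 that did not pass (FBL and UTP4), to set the same motif beside differing responses. Each is written 5′ to 3′ on the strand of the gene, with the motif in capitals.
UTP20, chr12:101280083-101280112, plus strand: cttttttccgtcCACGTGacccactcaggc
NOP2, chr12:6568242-6568271, minus strand: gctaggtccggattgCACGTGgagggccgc
LYAR, chr4:4290068-4290097, minus strand: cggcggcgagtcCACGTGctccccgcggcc
NOP14, chr4:2963374-2963403, minus strand: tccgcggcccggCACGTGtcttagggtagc
GNL3, chr3:52686026-52686055, plus strand: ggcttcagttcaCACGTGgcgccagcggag
WDR43, chr2:28894658-28894687, plus strand: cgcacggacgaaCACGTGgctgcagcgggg
FBL, chr19:39846356-39846385, minus strand: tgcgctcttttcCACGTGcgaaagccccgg
UTP4, chr16:69132621-69132650, plus strand: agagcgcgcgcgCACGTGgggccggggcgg

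Apart from the 6 shared letters the stretches differ from gene to gene. In UTP20 the motif begins at position -10 relative to the start site, and in NOP2 at 36. Of the 15 genes with the motif, 1 rose and 5 fell, and of the 19 without it, 5 rose and 4 fell. Genes without a window are in neither set. Among them, MYC and RRP12 rose, POLR1E, NOLC1, RRS1, RRP1B and BOP1 fell, and NOP58 did not pass. The 19 include the 3 MYC network genes with a window (MAX, MXD1 and MXI1), all of which rose. The 2 sets therefore differ in role as well as in motif. Among tested protein-coding genes, 246 rose and 266 fell of 1386 with the motif, and 1550 rose and 2057 fell of 9963 without it. A match to these letters is a description of the window and not a measure of binding.

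Other genes of ribosome production, listed from textbook knowledge of the pathway, stood near the background. Of 156 such genes, all of them tested, 23 rose (14.7%), 29 fell (18.6%) and the median was -0.06. The lower count was 46 without control 1 and 18 without mitocurcumin 1, and the higher count was 14 without mitocurcumin 3. Taken with the 38 genes outside the MYC network, 27 of 194 rose (13.9%) and 43 fell (22.2%).

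Of 54 other small subunit genes, 9 rose and 11 fell. RIOK3, a RIO kinase, rose by 0.87 ± 0.06 and EMG1, a methyltransferase of small subunit RNA, by 0.39 ± 0.08. DIMT1, which dimethylates small subunit RNA, fell by 0.46 ± 0.08 and LTV1, a factor of late maturation, by 0.41 ± 0.10.

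Of 54 other large subunit genes, 9 rose and 8 fell. RSL24D1, which takes a ribosomal protein's place in the precursor, had 177, 173 and 187 CPM with mitocurcumin, against 84.2, 88.4 and 94.7 CPM in controls, and rose by 1.01 ± 0.06 (edgeR adjusted p = 2.0e-09). Its rise was about as large as that of MXD1 and larger than any among the 38 genes of ribosome production. EFL1, a GTPase of the last steps, rose by 0.42 ± 0.07, while URB2 and BRIX1 fell by 0.56 ± 0.09 and 0.45 ± 0.07.

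Of 17 genes of the exosome and its cofactors, which trim ribosomal RNA precursors, EXOSC8 rose by 0.29 ± 0.07. MPHOSPH6, EXOSC9, EXOSC10 and EXOSC2 fell by 0.36, 0.35, 0.32 and 0.25 on the log2 scale.

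**Figure D4:**
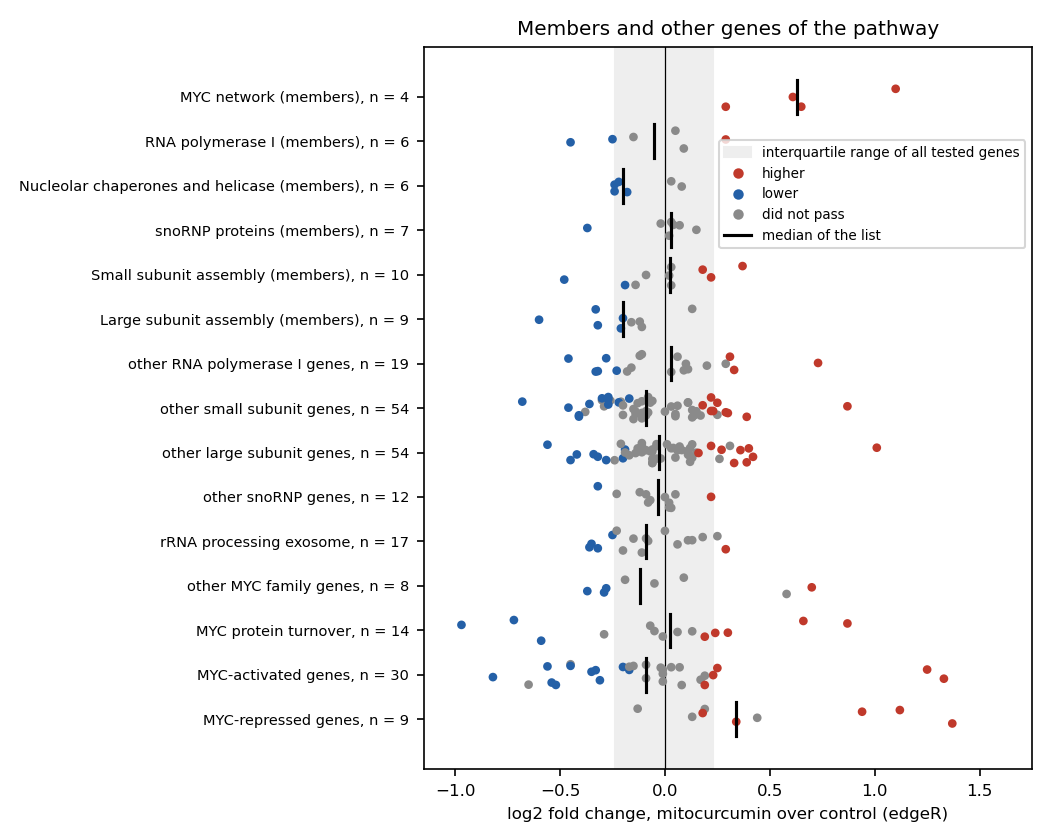
Log2 fold change, mitocurcumin over control, of each tested gene in the 6 role groups and in 9 further lists of the pathway (points; red higher, blue lower, grey did not pass), with the median of each list as a black bar and the interquartile range of all tested genes, -0.24 to 0.23, shaded. The MYC network lies right of the shaded band, and the medians of the other role groups lie inside it.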

How the data were processed

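RNA was extracted with Trizol and stranded libraries were made from poly(A) RNA with a KAPA kit, per the labels' protocols, with GRCh38 as the build named in the submitters' processing notes. Aligner and counting tool are not given in the sources used here. Raw values, as the authors deposited them, are estimated counts per gene, not scaled between libraries. The normalized values they deposited are log2 values of the raw value over 1 factor per library, with low ones at 0, and served only in 1 alternative. Estimated counts were rounded and tested with edgeR 4.0.16 in R 4.3.3 (TMM scaling, filterByExpr with at least 10 counts and a total of at least 15, robust quasi-likelihood F-test, group as the only term), with Benjamini-Hochberg adjustment over 16481 genes at 0.05. The code was tested on simulated data. CPM values use TMM-scaled totals, and each ± beside a fold change is an SE. Levels per kilobase divide CPM by GENCODE v29 exon length. limma 3.58.1 and DESeq2 1.42.0 were alternatives. The depth, 23146822 to 29104681 counts, and 3 libraries a group limit precision, and the biological coefficient of variation was 8.43%. Libraries of 1 group differed by more than sampling noise (chi-square per gene 5.31 to 19). Genes were grouped by role. Full values are given for the 4 MYC network genes and for up to 4 called genes per role with the largest change, and other lists give up to 2 called genes per direction at 5 CPM or more, all called genes where 5 or fewer passed, and any gene of the MYC family and RNA polymerase I lists. The 42 genes and all lists were chosen with earlier results of these data known.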

Additional observations from a re-analysis of the deposited data

How the results depend on the processing

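Of the 22 called genes, 11 passed in all 17 alternatives (MYC, MAX, MXD1, MXI1, POLR1B, UBTF, NOP56, UTP20, NOB1, NOP2 and RRS1), and 11 lost the call in at least 1. Of the 42 genes, 6 to 8 rose in each alternative. The count that fell was 6 to 15 with 1 library left out and 6 at an adjusted p under 0.01. Of the 156 other pathway genes, 14 to 26 rose and 18 to 46 fell with 1 library left out, and 13 rose and 19 fell at 0.01. The causes were not tested, beyond that fewer samples enter and that the threshold is stricter. With 1 library left out, 9 genes that did not pass changed direction: DDX21 ranged from -0.05 to 0.09, FBL from -0.03 to 0.12, NOP58 from -0.15 to 0.07, DKC1 from -0.02 to 0.06, GAR1 from -0.06 to 0.25, UTP4 from -0.003 to 0.08, PWP2 from -0.10 to 0.18, WDR75 from -0.06 to 0.14 and BYSL from -0.15 to 0.04. NOP58 was also at 0.01 under upper-quartile scaling and 0.006 with a filter of 1 CPM in 3 libraries, and PWP2 at -0.003 with unrounded counts. The difference in the log2 ratio of MXI1 to MYC ranged from -0.14 to 0.16 with 1 library left out and turned without control 1, an alternative chosen after seeing the data. Replicate numbers did not pair the libraries, with correlations of deviations of 0.101, 0.017 and -0.01, and 2 of 6 libraries correlating best with their own number. With the replicate block, 8 of the 42 genes rose and 14 fell, 25 and 35 of the other pathway genes, and 2643 and 3163 of all genes. PWP2 is uncertain beside its more abundant copy, and 3 libraries a group limit the small differences, most of which are below 0.4 on the log2 scale.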
